A study of Mus musculus with 4 samples.

Results

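The 10 genes described here encode proteins of the lipid droplet coat and of its lipolysis. They are the perilipin genes Plin2, Plin4 and Plin5, the CIDE genes Cidea, Cideb and Cidec, the droplet formation gene Fitm2, and the lipolysis genes Pnpla2, G0s2 and Abhd5. All probe sets that the array platform annotates with 1 of these symbols alone were taken, which gave 14 of 45101 probe sets, for 10 of the 18194 genes that have such a probe set. Each value comes from 1 male C57BL/6J mouse, 12 weeks old, fed normal chow and then kept without food for 24 h. The liver RNA of 2 wild-type mice and 2 mice labelled Cnot3+/-, heterozygotes for Cnot3, was hybridised to 1-colour Affymetrix arrays. The protein of Cnot3 belongs to CCR4-NOT, a deadenylase complex that starts the decay of many mRNAs. The labels describe the allele no further, and both genotypes were fasted, so no fed liver enters these comparisons. The question is whether these transcripts differ with the Cnot3 genotype after fasting. Each array is named by its genotype and the replicate number of its title.

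A lipid droplet is a core of triglyceride and cholesteryl ester under a phospholipid monolayer. Perilipins coat this surface and govern the access of lipases, CIDE proteins let droplets exchange lipid and grow, and FITM2 acts in the endoplasmic reticulum where droplets form. Adipose triglyceride lipase, encoded by Pnpla2, starts the breakdown of triglyceride. ABHD5 activates this lipase and G0S2 inhibits it. In fasting the liver takes up fatty acids released by adipose tissue, stores part of them in droplets and oxidises part.

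Promoter sequences from RefSeq (GRCm38.p6) were available for 9 of the 10 genes, all but Cidea, as 11 windows. The 250 bases before the annotated start were searched on both strands for 6 short motifs. The windows of G0s2 and Cidec are shown because the genotype means of G0s2 lay far apart and because Cidec varied widely within both genotypes. Capitals mark a match to a searched motif, here as its reverse complement.
G0s2, chr1:193273189-193273438, minus strand: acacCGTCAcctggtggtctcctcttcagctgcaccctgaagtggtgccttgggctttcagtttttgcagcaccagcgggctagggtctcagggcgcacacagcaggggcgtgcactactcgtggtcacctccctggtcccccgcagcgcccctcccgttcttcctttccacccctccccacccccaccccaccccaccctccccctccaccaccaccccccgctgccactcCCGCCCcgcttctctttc
Cidec, chr6:113435761-113436010, minus strand: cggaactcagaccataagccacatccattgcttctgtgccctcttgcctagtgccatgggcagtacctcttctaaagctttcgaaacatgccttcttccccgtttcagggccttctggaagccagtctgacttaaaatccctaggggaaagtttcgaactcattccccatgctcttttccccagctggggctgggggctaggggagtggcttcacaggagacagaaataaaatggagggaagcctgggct
The capitals in the G0s2 window are a TGACG match, the half-site of the cAMP response element, and a GGGCGG match, the GC box. The Cidec window shown held no match to any of the 6. TGACG occurred in 2 of the 11 windows, of G0s2 and Abhd5, and in 17.8% of all 32851 windows of the same length. GGGCGG occurred in 7 of the 11 windows, of 6 genes (Plin5, Cideb, Pnpla2, G0s2, Abhd5 and Fitm2), and in 32.7% of all windows. CCAAT was found in 3 of the 11 windows, of Plin2, Plin4 and Plin5 (33.8% of all windows). AGGTCA, the nuclear receptor half-site, was in 3, of Plin2, Plin5 and Abhd5 (14% of all windows), and TATAAA was in 1, of Cideb (12.4%). The spaced repeat AGGTCANAGGTCA, which contains AGGTCA, was in none of the 11 windows and in 0.0335% of all. These matches describe the letters of the windows and say nothing of binding.

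The values of all 4 arrays were similar in distribution, with medians between 4.62 and 4.66 on the log2 scale. The hepatocyte markers were present. Alb stood between 14.80 and 14.87, close to the highest value of the table, 14.96, so its evenness carries little information. The groups did not overlap for 4 of the 9 hepatocyte markers tested (3 higher, 1 lower), against 31.5% of all genes. The median difference of the 9 was 0.09. The largest differences were 0.71 (SE 0.22) for Ass1 and 0.29 (SE 0.14) for Hpx. The Ass1 probe set was the dimmest of the list, at 6.71 and 6.63 in wild-type against 7.66 and 7.09 in Cnot3+/-. Cnot3 itself did not separate the labels. Its brighter probe set stood at 7.48 and 8.14 on the wild-type arrays, compared with 7.70 and 7.86 on the Cnot3+/- arrays, a difference of -0.03 (SE 0.25), and its dimmer one had a difference of 0.11 (SE 0.15). Where the allele and the probes lie within Cnot3 is not stated, so these probe sets cannot check the labels, and directions rest on the arrays as labelled. All 12 macrophage markers examined were highest on Cnot3+/- 2, and all 10 sinusoidal endothelial markers were lowest on Cnot3+/- 1. The means of the macrophage list relative to wild-type were -0.34 on Cnot3+/- 1 and 1.79 on Cnot3+/- 2, and those of the endothelial list were -0.93 and -0.13.

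Of the 14 probe sets, 12 passed the filter on low values, with at least 1 for every gene. The leading probe sets, those of highest mean for their gene (for Plin5 among probe sets other than _s_at), were 1448318_at for Plin2, 1418595_at for Plin4, 1424937_at for Plin5, 1417956_at for Cidea, 1418976_s_at for Cideb and 1452260_at for Cidec. For Pnpla2, G0s2, Abhd5 and Fitm2 they were 1428143_a_at, 1448700_at, 1417566_at and 1454935_at. A dim probe set of Pnpla2 (3.24 to 3.37 on the 4 arrays) and a dim one of Abhd5 (2.86 to 3.30) did not. Both genotype means of each of the 12 lay above the limit of the filter, 4.06. None of the 12 passed the test between genotypes (limma, adjusted p = 1 for each). Plin4 and G0s2 had an unadjusted p under 0.05, that is 2 of 12. With each probe set's own spread alone (no moderation), the limma fit gave an unadjusted p of 0.0127 for Plin4 and 0.22 for G0s2. Over all 27003 probe sets tested, 2 (0.00741%) passed at an adjusted p under 0.05, both higher in Cnot3+/- (0.00741%) with a share of 0% for lower calls, and 3.72% had an unadjusted p under 0.05. The groups did not overlap for 4 of the 12, against 31.1% of all probe sets. Plin4 was the one higher in both Cnot3+/- arrays (14.6% of all), and G0s2 and both Abhd5 probe sets were lower in both (16.5% of all). The median difference of the 12 was -0.10, beside -0.01 over all probe sets tested. A gap within a genotype exceeded the difference between genotypes for 8 of the 10 genes, and for 79.8% of all genes.

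**Figure D1:**
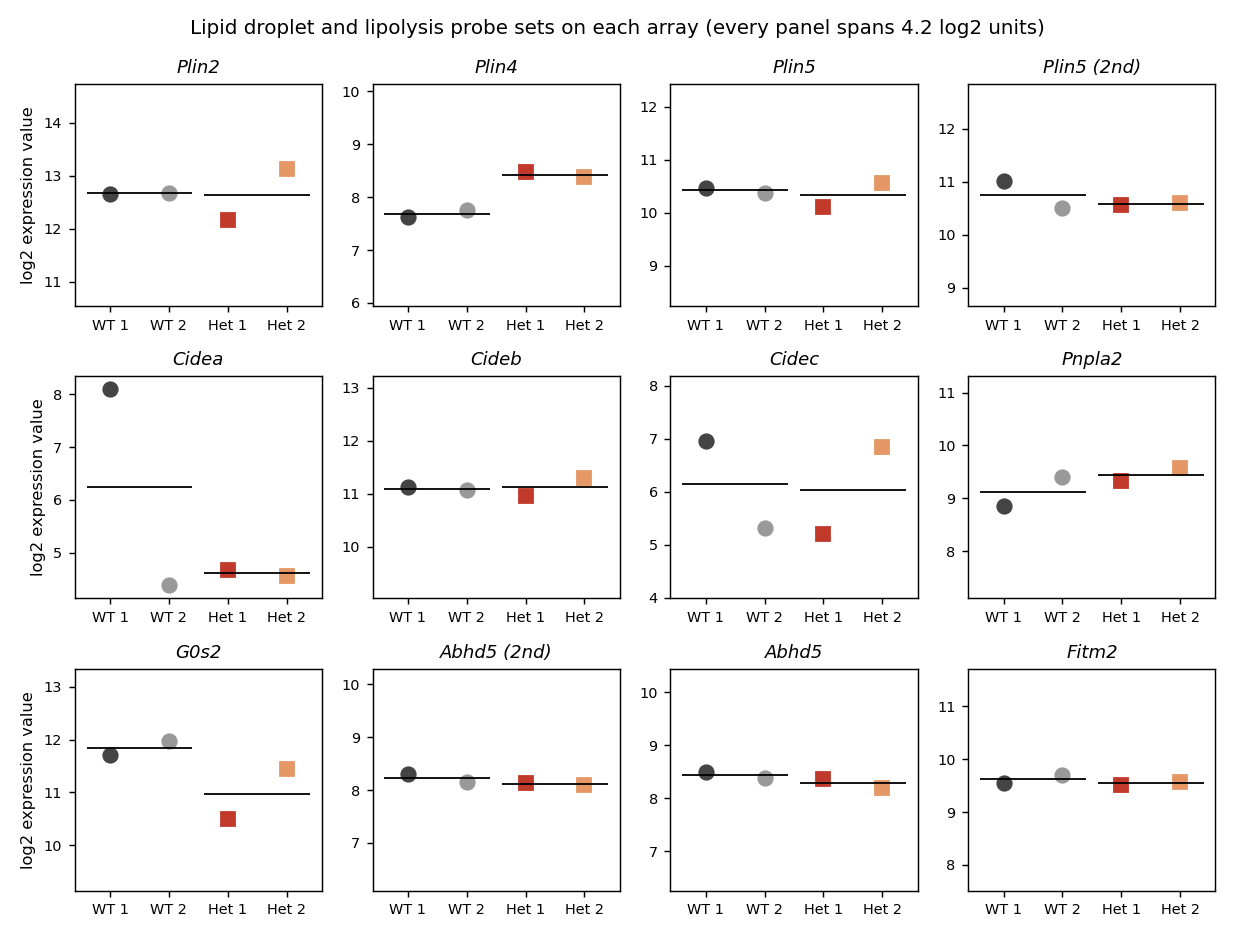
The log2 expression value of each of the 12 probe sets tested is plotted for each array, with circles for wild-type (WT), squares for Cnot3+/- (Het) and a line at each genotype mean. Every panel spans the same range of log2 units, and "2nd" marks a gene's other probe set. Plin4 was higher in both Cnot3+/- arrays, whereas Cidea was high on wild-type 1 alone and Cidec on 1 array of each genotype.

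Among the coat proteins, Plin4 had the highest difference of the 10 genes. Perilipin 4 is best known from adipose tissue and muscle and binds droplets through a long amphipathic repeat region. On the log2 scale it stood at 7.62 and 7.76 on the wild-type arrays, compared with 8.47 and 8.38 on the Cnot3+/- arrays. Both Cnot3+/- arrays lay above both wild-type arrays, and the gaps within a genotype were small, at 0.14 and 0.09. The difference was 0.74 (SE 0.14, 95% confidence interval 0.38 to 1.09, n = 2 per group), or 1.67-fold, with an unadjusted limma p of 0.00279 and an adjusted p of 1. It ran from 0.66 to 0.81 when any 1 array was left out. In bulk liver RNA, a change in the number of cells of a type cannot be told apart from a change in RNA per cell.

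Plin2, the perilipin of most non-adipose cells and the main one of hepatocytes, did not separate the genotypes but separated the Cnot3+/- animals. Both wild-type arrays were close, at 12.66 and 12.67, whereas Cnot3+/- 1 had 12.16 and Cnot3+/- 2 had 13.12. The wild-type values lay between the Cnot3+/- ones. The gap of 0.96 between the Cnot3+/- arrays was reached by 2.91% of all probe sets tested, and the wild-type gap of 0.01 was exceeded or equalled by 95.6%. The genotype difference was -0.03 (SE 0.32, interval -0.83 to 0.77). It was 0.45 without Cnot3+/- 1 and -0.51 without Cnot3+/- 2.

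Plin5 encodes the perilipin of oxidative tissues, which binds the lipase and ABHD5 and brings droplets close to mitochondria. Its leading probe set followed the order of Plin2 in Cnot3+/-, at 10.11 in Cnot3+/- 1 and 10.57 in Cnot3+/- 2, with 10.47 and 10.38 in wild-type. The genotypes overlapped, and the difference was -0.09 (SE 0.20, interval -0.58 to 0.40). The other Plin5 probe set, of a kind that can match several transcripts (_s_at), did not show this order. It was highest on wild-type 1 at 11.01 and lay between 10.50 and 10.60 on the other arrays, which gave a difference of -0.17 (SE 0.20). The probe sets of Plin5 therefore gave different array orders but no genotype difference beyond their error.

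Cidea had the widest spread of any gene between the wild-type animals. CIDEA is a droplet protein of brown fat that is also known from fatty liver, where its transcript rises. Its value was 8.09 on wild-type 1 and 4.39 on wild-type 2, beside 4.67 on Cnot3+/- 1 and 4.56 on Cnot3+/- 2. Wild-type 1 alone was high, by 3.42 above the next array, or 10.7-fold, and the other arrays lay near the array medians. No other of the 27003 probe sets tested had a wild-type gap as wide as its 3.70. The genotype difference of -1.63 (SE 1.13, interval -4.47 to 1.22, limma adjusted p = 1) was the lowest of all 13379 genes tested, and it rested on that array. Without wild-type 1 it was 0.23, and without wild-type 2 it was -3.48. A single probe set reports Cidea here, so no other probe set of the gene bears on its value.

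No other gene shared this pattern to a like degree. Among the 13379 genes, 4 stood at least 1 log2 unit higher on wild-type 1 than on each of the other arrays, and Cidea was the single one at 2 or more. The next gaps were 1.24 for the gene model Gm2788, 1.14 for the arylsulfatase gene Arsg, 1.12 for Leap2, which encodes a peptide made in liver and gut, 0.99 for the serpin gene Serpinb1a and 0.95 for Tmem14a. Adipocyte markers were mixed across the arrays. Of 15 listed, 8 were tested, and their means relative to wild-type were 0.14 on wild-type 1, -0.14 on wild-type 2, -0.16 on Cnot3+/- 1 and 0.15 on Cnot3+/- 2. Highest on wild-type 1 were 3 of the 8, against 29.8% of all genes. As many, 3, were highest on Cnot3+/- 2 (24.9% of all genes), and 5 were lowest on Cnot3+/- 1 (24.8%). Of those highest on wild-type 1, Fabp4, a fatty acid binding protein gene, stood at 7.74 there and at 6.92, 7.09 and 7.11 on the other arrays. Elovl3, an elongase gene, had 11.96 there against 10.77, 10.75 and 11.15. It was bright on every array, so its values need not mark adipocytes. The third was Pparg, given below. Lpl, the lipoprotein lipase gene, had the largest difference of the list and was higher in Cnot3+/-, as Plin4 was. It had 7.70 and 7.02 on the wild-type arrays and 8.53 and 9.15 on the others, a difference of 1.48 (SE 0.31, limma unadjusted p = 0.00383, adjusted p = 1). Markers below the filter were Adipoq, the adiponectin gene, at 2.81 and 2.95 against 2.69 and 2.89, the brown fat uncoupling gene Ucp1 at 3.50 and 3.67 against 3.46 and 3.53, and the leptin gene Lep at 2.85 and 2.76 against 3.05 and 2.85. Aoc3 was also below it (2.97 and 2.80 against 3.05 and 2.91), as was Slc7a10, which was highest on wild-type 1 at 4.21, with 3.93, 3.90 and 3.92 on the other arrays. The sum of the unlogged values of the 8 was 18000 on each wild-type array and 14000 and 15600 on the Cnot3+/- arrays, but most of it is Car3 (13.66, 13.90, 13.45 and 13.53 on the log2 scale), so it does not reflect the other markers. The part of adipocytes in the values of Cidea and Plin4 was not tested. Adipocyte markers were named after their values were seen.

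**Figure D2:**
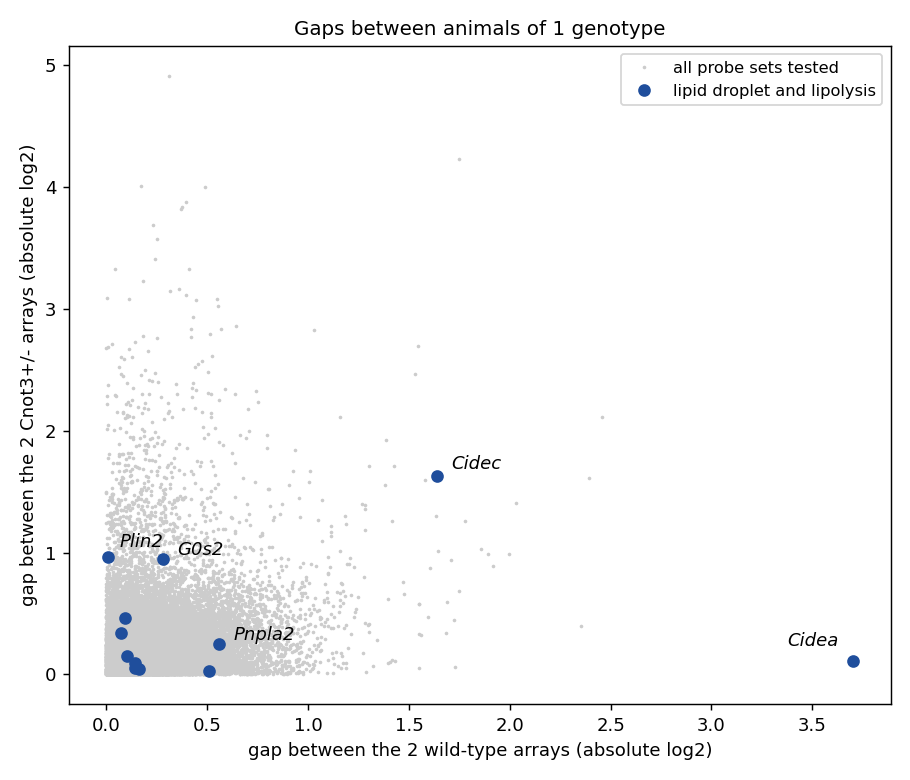
Each point is a probe set, placed by the absolute log2 gap between the wild-type arrays (horizontal axis) and between the Cnot3+/- arrays (vertical axis), with the 12 lipid droplet and lipolysis probe sets in blue over all 27003 tested. Cidea lies furthest right at 3.70, Cidec is wide on both axes at 1.64 and 1.63, and Plin2 and G0s2 are wide between the Cnot3+/- animals at 0.96 and 0.95.

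Cidec, whose protein promotes the growth of large droplets in adipocytes and fatty liver, varied within both genotypes. Wild-type 1 had 6.96 and wild-type 2 had 5.32, while Cnot3+/- 1 had 5.21 and Cnot3+/- 2 had 6.84. One animal of each genotype was high and one was low. A wild-type gap as wide as its 1.64 was found for 20 probe sets in all, and a Cnot3+/- gap as wide as its 1.63 for 0.80%. The genotype difference was -0.12 (SE 0.71, interval -1.91 to 1.68), and it ran from -0.93 to 0.70 with 1 array left out. Cidec thus shared the high value of Cidea on wild-type 1 but was also high on Cnot3+/- 2, where Cidea was not.

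Pparg, which encodes the nuclear receptor known to drive Cidea and Cidec in fatty liver, had values of 6.47 and 6.13 on the wild-type arrays and of 5.39 and 6.16 on the Cnot3+/- arrays. It was highest on wild-type 1 and lowest on Cnot3+/- 1, with a difference of -0.53 (SE 0.29). It lies on both the regulator and the adipocyte list, and its values were singled out after they were seen. The part of Pparg in the values of Cidea and Cidec was not tested.

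Cideb is the family member of hepatocytes and acts in the lipidation of very low density lipoprotein. Its wild-type values were 11.13 and 11.06 and its Cnot3+/- values 10.95 and 11.29, on a probe set that can match several transcripts. The groups overlapped, and the difference was 0.03 (SE 0.17, interval -0.40 to 0.45). Its interval was narrower than those of Cidea and Cidec.

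Fitm2 was as even. The wild-type arrays had 9.54 and 9.70 and the Cnot3+/- arrays 9.52 and 9.56, with a difference of -0.08 (SE 0.14, interval -0.43 to 0.28). All 4 values lay within a narrow band, and the groups overlapped.

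Among the lipolysis genes, G0s2 was lower in both Cnot3+/- arrays without passing the test. Wild-type 1 and 2 had 11.71 and 11.98, Cnot3+/- 1 had 10.50 and Cnot3+/- 2 had 11.45. Both Cnot3+/- arrays lay below both wild-type arrays, but Cnot3+/- 1 was much the lower. The difference was -0.87 (SE 0.33, interval -1.70 to -0.05), or 1.83-fold lower, with an unadjusted limma p of 0.0414 and an adjusted p of 1. It was -0.40 without Cnot3+/- 1 and -1.35 without Cnot3+/- 2, so the size of the difference depended on that animal. The gap of 0.95 between the Cnot3+/- arrays was reached by 2.96% of all probe sets tested.

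Pnpla2, the gene of the lipase that G0S2 inhibits, was lowest on wild-type 1. Its value was 8.85 there and 9.40 on wild-type 2, beside 9.32 on Cnot3+/- 1 and 9.57 on Cnot3+/- 2. Cnot3+/- 1 lay below wild-type 2, so the groups overlapped. The difference was 0.32 (SE 0.23, interval -0.25 to 0.89), and it fell to 0.04 without wild-type 1 and rose to 0.60 without wild-type 2.

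Abhd5, the gene of the activator of that lipase, was marginally lower in Cnot3+/- on both of its brighter probe sets. The leading one stood at 8.50 and 8.39 against 8.36 and 8.20 (wild-type first), and the other at 8.30 and 8.16 against 8.14 and 8.09. The groups did not overlap on either, yet the intervals of the differences, -0.16 (SE 0.14, -0.53 to 0.20) and -0.11 (SE 0.14, -0.47 to 0.24), include 0. These probe sets read the same RNA and are no independent replicates.

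**Figure D3:**
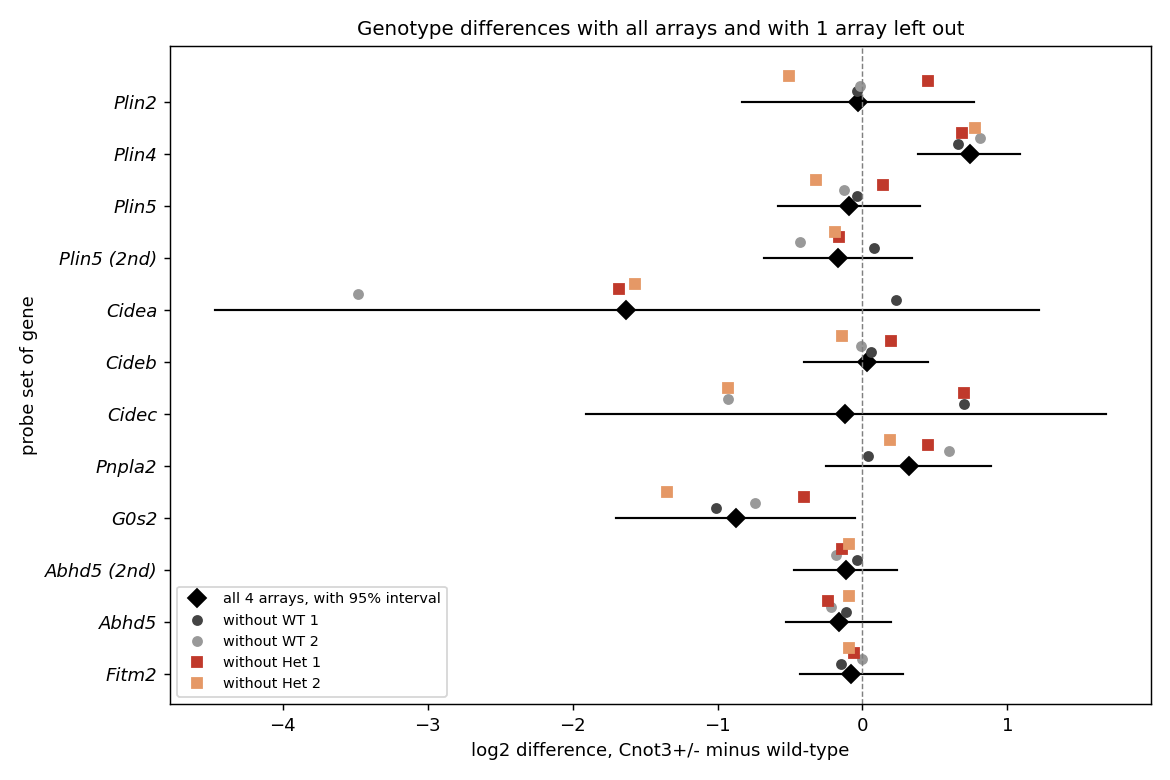
The log2 difference, Cnot3+/- minus wild-type, is shown for each of the 12 probe sets with its 95% interval (diamond and line), and the differences with 1 array left out as small symbols above it. The groups of Plin4, G0s2 and Abhd5 do not overlap, so leaving out 1 array cannot reverse their direction. The differences of Pnpla2 run from 0.04 to 0.60 and those of Cidea from -3.48 to 0.23.

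Beyond the genotypes, the Cnot3+/- animals differed from each other. Cnot3+/- 2 was above Cnot3+/- 1 for 7 of the 10 (all but Plin4, Cidea and Abhd5), against 48.4% of all genes. Cnot3+/- 1 was the lowest array for 6 of the 10, against 24.8% of all genes. The cell type markers also moved between these arrays. The sum of the unlogged values of the 12 macrophage markers ran from 4660 to 5300 in wild-type and from 4110 to 15800 in Cnot3+/-. For the 10 stellate cell and fibroblast markers it ran from 3240 to 3520 and from 2400 to 4850, and for the 10 endothelial markers from 2910 to 3070 and from 1380 to 2440. Most of the stellate and fibroblast sum is Dcn (10.94, 11.12, 10.54 and 11.60 on the log2 scale). Of these stellate and fibroblast markers, 6 were highest on Cnot3+/- 2, whereas Hhip was lowest there. All markers of these 3 lists passed the filter. The part of these cells in the values of Plin2, Cidec and G0s2 was not tested.

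The other genes of the pathway were read through lists of related function, and no listed gene passed the test. The count of genes whose groups do not overlap is to be read beside 31.5% of all genes tested (14.1% higher and 17.4% lower), and the median difference beside -0.01. Among all genes 0.0149% passed at an adjusted p under 0.05 (limma), and 3.43% had an unadjusted p under 0.05.

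Of 24 other droplet proteins tested, 12 were above and 12 below wild-type, with a median difference of 0.01. The groups did not overlap for 9, of which 4 were higher and 5 lower, and 1 had an unadjusted p under 0.05. That one was Fitm1, the relative of Fitm2, at 10.15 and 9.82 in wild-type against 9.27 and 9.61 in Cnot3+/-, a difference of -0.54 (SE 0.20). Cav1, the caveolin 1 gene, differed by -0.43 (SE 0.20), and Vcp, the gene of an ATPase that extracts proteins from membranes, by 0.41 (SE 0.21). Plin3, the remaining perilipin gene with a value, differed by 0.34 (SE 0.15) and was named after its value was seen.

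Among 17 other lipases and ester hydrolases, 6 were above and 11 below wild-type, with a median of -0.08. The groups did not overlap for 4 (1 higher, 3 lower), and 3 had an unadjusted p under 0.05. Probe sets of the Ces1 carboxylesterase family had the largest differences. Ces1d, whose product hydrolyses stored triglyceride in hepatocytes, had 12.49 and 12.51 in wild-type and 12.03 in both Cnot3+/- arrays, a difference of -0.47 (SE 0.13). Ces1e differed by -0.55 (SE 0.22), Ces1f by -0.45 (SE 0.14) and Ces1g, in the opposite direction, by 0.50 (SE 0.22). Ces2a, a carboxylesterase gene outside that family, differed by -0.01 (SE 0.15). Ces1f and Ces2a were named after their values were seen. The Ces1 genes are close relatives, so a probe set of one may also detect another. Lipe, the hormone-sensitive lipase gene, differed by -0.02 (SE 0.19) and Mgll, the monoacylglycerol lipase gene, by -0.31 (SE 0.22), both named after their values were seen.

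Triglyceride synthesis genes had 10 of 19 members above and 9 below wild-type, with a median of 0.05. The groups did not overlap for 8 (3 higher, 5 lower), and 1 had an unadjusted p under 0.05. That one was Mogat1, a monoacylglycerol acyltransferase gene, with 6.12 on wild-type 1 and 5.33 on wild-type 2, beside 4.91 and 4.93 on the Cnot3+/- arrays. It was among the 3 of the 19 that were highest on wild-type 1 (29.8% of all genes), and its difference was -0.81 (SE 0.28). The lipin genes Lpin1 and Lpin2, whose products make diacylglycerol, differed by 0.57 (SE 0.31) and 0.57 (SE 0.28). Lpin1 had 10.59 and 11.25 in wild-type against 11.81 and 11.16 in Cnot3+/-, so its groups overlapped. Lpin2 had 10.28 and 11.06 against 11.15 and 11.33. Both genes were lowest on wild-type 1.

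Of 20 regulators, 9 were above and 11 below wild-type, with a median of -0.03, and the groups did not overlap for 6 (1 higher, 5 lower). The median gap between the wild-type arrays was 0.47 for this list, against 0.18 over all genes tested. An unadjusted p under 0.05 was reached by 2. Srebf1, the gene of the lipogenic factor SREBP1, had 10.31 and 9.69 on the wild-type arrays and 8.90 and 8.81 on the others. Ppargc1a, a coactivator gene of fasting, stood at 5.63 and 6.44 against 7.29 and 7.04. Cebpb had 10.29 and 11.35 against 11.21 and 11.51, so its groups overlapped, and it differed by 0.54 (SE 0.36). Ppara, the gene of the receptor that drives many droplet genes in fasting, was even, with a difference of 0.05 (SE 0.20), and was named after its value was seen.

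**Figure D4:**
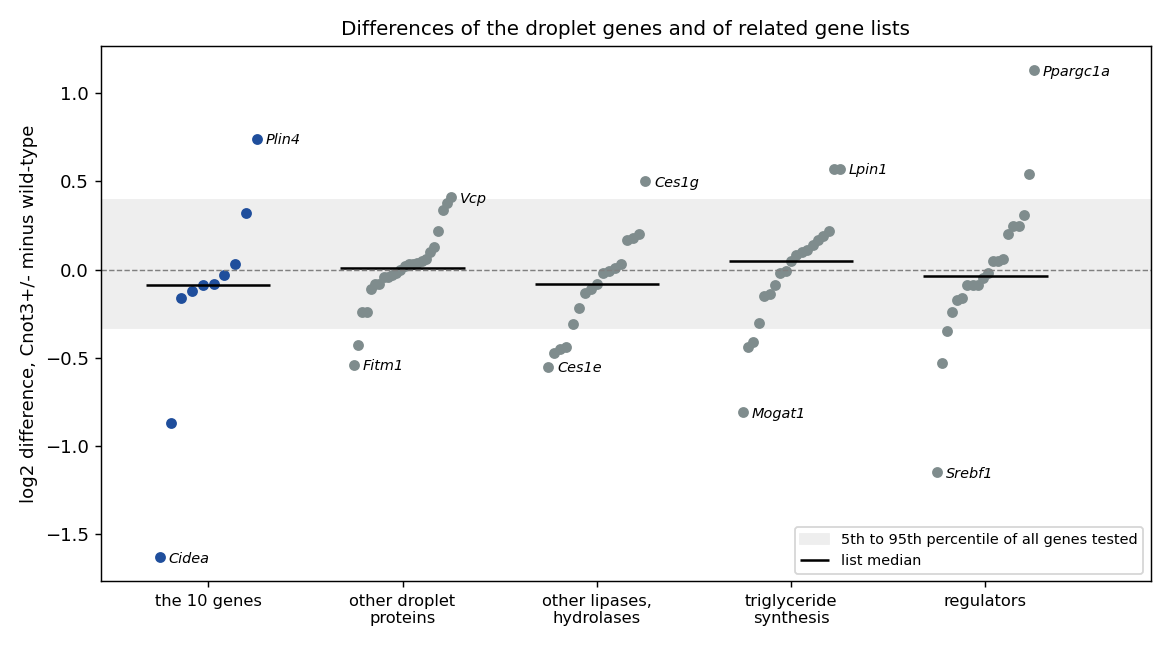
Each point is the log2 difference, Cnot3+/- minus wild-type, of a gene's leading probe set, for the 10 genes and for the 4 lists, with a line at each median and a grey band from the 5th to the 95th percentile of all genes tested (-0.33 to 0.39). The medians lie near 0. Cidea, G0s2 and Plin4 lie outside the band, as do genes of every list, among them Srebf1 (-1.15), Ppargc1a (1.13), Mogat1 (-0.81), Ces1e (-0.55) and Fitm1 (-0.54).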

How the data were processed

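The authors deposited log2 expression values of 4 arrays. Per the submitters' processing notes, RMA made them. This method corrects background, normalizes between arrays and summarises probes, and it compresses differences of dim probe sets. No version of RMA is stated, nor which arrays went into it. The log2 scale was taken from the values (1.85 to 14.96). No detection calls were used.

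Probe sets were named through the platform's annotation table. Control probe sets and the lowest 40% by mean over the arrays (below 4.06) were left out, and the other 27003 were tested in limma 3.58.1 (R 4.3.3; lmFit and eBayes, two-sided, no covariate, 2 residual degrees of freedom, prior 3.43, prior SD 0.167). Adjusted p is by Benjamini-Hochberg over all of them, with a threshold of 0.05. SE is the moderated standard error. Differences are Cnot3+/- minus wild-type. Per gene the leading probe set was that of highest mean, and an _x_at or _s_at one only where no other was tested. On simulated data with 27003 probe sets and independent errors, the test recovered 76% of changes of 1 log2 unit and 98% of those of 2, with 20 false calls. That simulation changed 200 probe sets, which eases the adjusted threshold. Its errors were drawn with the moderated spreads, which vary less between probe sets than the unmoderated ones. The shares therefore need not hold here.

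With 2 arrays per group, called biological replicates in the labels, precision is limited by their number. The 10 genes, the lists and the naming rule (all 10 genes, the 3 largest differences of each pathway list, and the 5 genes most like Cidea in standing out on 1 array) were chosen with earlier results of these data known. Cell type markers were read as lists. Listed genes without a tested probe set were not analysed here, except that the array values of adipocyte markers below the filter are given above. Neutrophil, muscle and pancreas markers were also listed and had a median difference of 0.04, -0.01 and -0.23 over 8, 5 and 2 genes tested, and 9 hepatocyte markers one of 0.09. For adipocyte, macrophage, stellate and endothelial markers it was -0.17, 0.59, 0.03 and -0.49.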

Additional observations from a re-analysis of the deposited data

How the results depend on the processing

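None of the 10 genes passed the threshold under any of 13 alternatives: other filters, quantile or median scaling, a trended prior, no moderation, 1 or a mean value per gene, a replicate block, and each array left out. The smallest adjusted p of any of them was 0.588, for Plin4 without Cnot3+/- 1. In a fit without 1 array the spread comes from the pair of the other genotype and the prior, and the lone array is assumed to vary like that pair. With all arrays kept, only quantile scaling, median scaling and the mean per gene can alter a difference, and 0 of the 34 values they gave changed direction. The mean per gene can do so only for Plin5 and Abhd5, which have more than 1 probe set tested. Median scaling shifts every difference by the same small amount. Many of the 34 values were thus fixed or nearly fixed in advance, and their count is no measure of stability. With 1 array left out, 9 of 48 did: Plin2 ran from -0.51 to 0.45, Plin5 from -0.32 to 0.14 and, on its other probe set, from -0.43 to 0.08, Cidea from -3.48 to 0.23, Cideb from -0.14 to 0.20, Cidec from -0.93 to 0.70, and Fitm2 from -0.15 to 0.00. Over all probe sets 2 calls were made, against 0 with the replicate block and 0 in each fit without 1 array, in which fewer degrees of freedom remain. Deviations of same-numbered arrays correlated at 0.171, over 2 pairs that share only a number, and the block changed no call of the 10 genes. The non-overlap count of the 12 probe sets was 3 with array medians set to 0 and 4 otherwise. The signal limits Cidea, whose low values lie near the array medians.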
